A study of Mus musculus with 6 samples.

Results

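The genes described here encode NF-kappaB transcription factors and the proteins that hold them back, measured in cultured mouse microglia with and without the Fosb gene's products. They were chosen by name, as the probe sets to which the array's annotation gives exactly 1 symbol and that symbol is Nfkb1, Nfkb2, Rel, Rela, Relb, Nfkbia, Nfkbie, Nfkbiz, Bcl3 or Tnfaip3. This gave 9 probe sets for 9 of the 10 genes, of 23410 probe sets with a gene symbol and 35557 in all, and Nfkb1 was not analysed here. None of the members was missing because of a filter on signal, since none was applied.

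NF-kappaB factors are dimers of proteins that share a DNA-binding Rel homology domain. In resting cells most dimers are kept in the cytoplasm by IkappaB proteins, and stimulation of Toll-like, interleukin-1 or tumour necrosis factor receptors activates a kinase complex that marks IkappaB for degradation, so that the dimers enter the nucleus. Several of the genes switched on in turn encode inhibitors, which end the response, and in microglia the pathway is known for driving cytokine and chemokine production.

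The fosB-null group held 3 arrays of RNA from microglia of mice homozygous for fosBG, a null allele of Fosb carried by mice backcrossed to C57BL/6J (N20 generation) and then intercrossed. The wild-type group held 3 arrays of RNA from microglia of C57BL/6J mice. In both groups the cells came from the cerebral cortex of pups 2 days old, were collected after 10 days of culture and replated for 24 h, and received no stimulus that the labels record. The allele is carried in every cell of the animal, the labels give neither the number nor the sex of the pups behind a culture, and FosB belongs to AP-1, a family of early response transcription factors.

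The arrays carry a replicate number from 1 to 3 in each group, and the labels call them biological replicates without saying what a number stands for. Same-numbered arrays of the 2 groups held exactly the same value in 51.3%, 45.2% and 46.3% of all probe sets for numbers 1, 2 and 3, while a fosB-null and a wild-type array of different number had no more than 3 values in common. Deviations from each group's mean correlated at 0.91, 0.82 and 0.82 within the pairs, across the 23410 tested probe sets and with the ties included. The numbers therefore pair the arrays. How the ties arose is not recorded in the labels, and a tied pair is given here as a tie, not as evidence that the 2 signals were equal. Microglia markers averaged 12.24 to 12.35 log2 signal on fosB-null and 12.17 to 12.36 on wild-type arrays (13 of 14 listed markers measured), and the astrocyte, neuron and blood leukocyte markers averaged between 6.47 and 7.37 on every array. Border macrophage markers, at 9.93 to 10.18 on fosB-null and 9.79 to 10.03 on wild-type arrays, had a median difference of 0.14, and 0 marker genes of any of the 8 lists passed the adjusted threshold. The oligodendrocyte lineage, endothelium, and fibroblast and mural markers averaged between 7.44 and 8.20. The Fosb probe set itself differed by -0.12 (standard error 0.10, limma unadjusted p = 0.249), or by -0.19, -0.09 and -0.09 in the pairs. With the replicate number as a fixed block limma's unadjusted p was 0.0452 (2.31% of all tested probe sets were under 0.05). As a random block it was 0.003 (9.65% of all were under 0.05). The place of this probe set relative to the mutated stretch of the gene was not analysed here.

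None of the 9 genes passed the test across all probe sets. Of these, 7 had a lower mean in fosB-null arrays and Rel had a higher one. Tnfaip3 had the same value on both arrays of each pair. By mean, 41.3% of all tested probe sets were lower and 30.9% higher. Among the 7846 at least as bright as Nfkbie, the dimmest member, 58.6% were lower and 33.7% higher. Within the 9 members the largest difference was that of Bcl3, at -0.16 on the log2 scale, or 89.7% of the wild-type signal. The other 8 lay between -0.08 and 0.02. By limma, 0 of 9 members had an adjusted p under 0.05, where 0.00427% of all tested probe sets did (1 of 23410), and 0 of 9 had an unadjusted p under 0.05, where 0.722% did. The groups overlapped for all 9 members, and 1.12% of tested probe sets did not overlap. With the replicate number as a fixed block, limma again called 0 of 9 at the adjusted threshold (0% of all probe sets), with 2 members, Bcl3 and Nfkb2, at an unadjusted p under 0.05 (2.31% of all), and as a random block 0 of 9 (0.201% of all), with 2 members, Bcl3 and Nfkbia, at an unadjusted p under 0.05 (9.65% of all). In such bulk samples fewer cells of a type and less RNA per cell cannot be told apart.

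**Figure D1:**
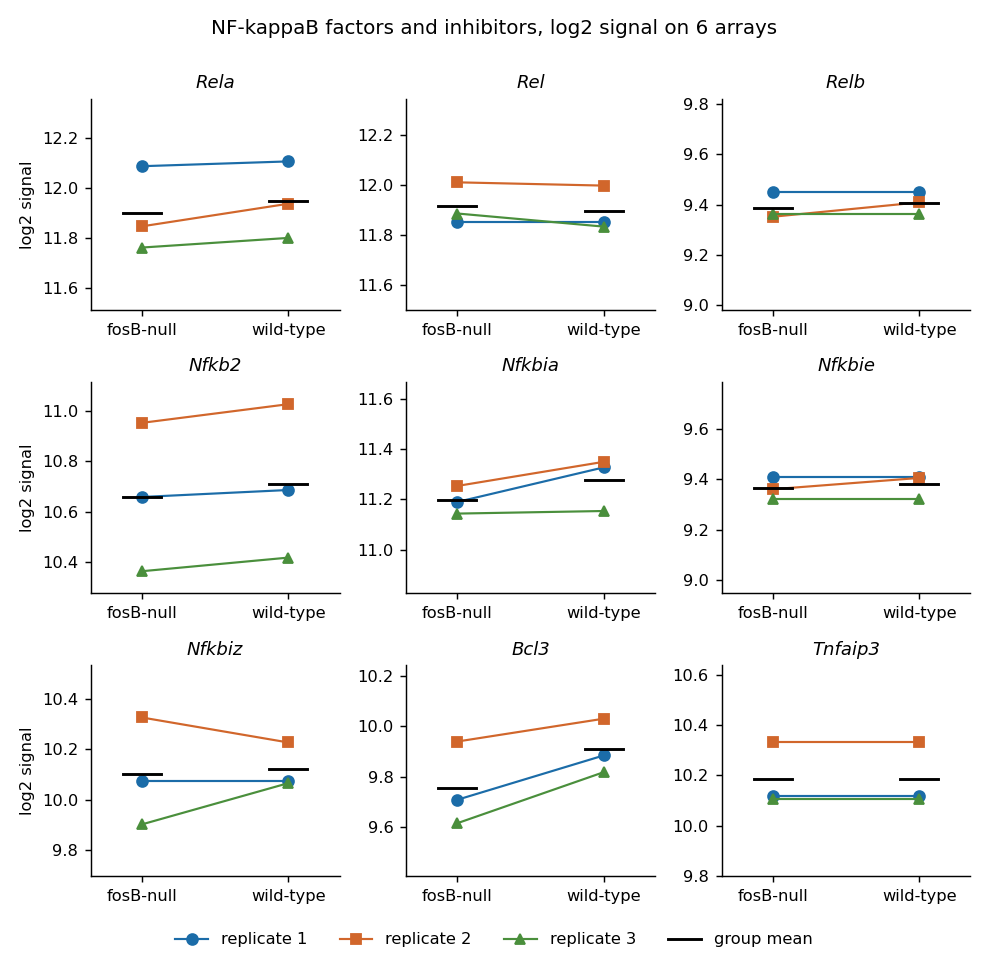
Log2 signal of the 9 measured members on each of the 6 arrays, fosB-null on the left and wild-type on the right of each panel, with same-numbered arrays joined by a line and the group means as black bars. Every panel spans the same log2 range. Most lines are nearly level, and the steepest, pair 3 of Bcl3, differs by -0.20. The replicate numbers lie further apart than the group means. In log2 units their range is widest for Nfkb2, at 0.60.

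Promoter sequences are given to show which members carry letters that match the motif of NF-kappaB or of AP-1, the family of FosB. RefSeq windows of 300 bases (assembly GRCm38.p6), from 250 before to 50 after an annotated start, were found for 7 of the 9 measured members, with 10 windows in all. The NF-kappaB motif was searched as GGG, any 5 bases and CC, and the AP-1 motif as TGAGTCA, each on both strands, and overlapping matches were kept. All 7 genes had an NF-kappaB match, in each of the 10 windows. However, this loose motif is present in 50.8% of all 32851 promoter windows. An AP-1 match was present in 2 of the 10 windows, 1 each of Tnfaip3 and Nfkbie, against 5.20% of all windows. The sequences run along the gene's own strand, and capitals mark matches to either motif. Bcl3 and Nfkbia are shown because they had the largest differences, and Tnfaip3 and Nfkbie because they hold the AP-1 matches.
Bcl3, chr7:19822706-19823005, minus strand: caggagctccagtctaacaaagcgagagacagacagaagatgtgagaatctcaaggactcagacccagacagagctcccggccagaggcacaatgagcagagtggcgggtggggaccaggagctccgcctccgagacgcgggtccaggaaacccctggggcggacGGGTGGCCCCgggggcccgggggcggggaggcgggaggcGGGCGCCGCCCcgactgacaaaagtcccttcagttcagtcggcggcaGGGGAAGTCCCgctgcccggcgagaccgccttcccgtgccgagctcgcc
Nfkbia, chr12:55492598-55492897, minus strand: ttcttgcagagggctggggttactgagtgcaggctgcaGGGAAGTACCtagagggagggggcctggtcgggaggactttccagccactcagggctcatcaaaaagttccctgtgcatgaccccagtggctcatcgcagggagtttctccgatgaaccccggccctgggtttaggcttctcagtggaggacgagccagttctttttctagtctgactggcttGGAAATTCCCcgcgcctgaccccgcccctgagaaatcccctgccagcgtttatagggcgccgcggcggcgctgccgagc
Tnfaip3, chr10:19015361-19015660, minus strand: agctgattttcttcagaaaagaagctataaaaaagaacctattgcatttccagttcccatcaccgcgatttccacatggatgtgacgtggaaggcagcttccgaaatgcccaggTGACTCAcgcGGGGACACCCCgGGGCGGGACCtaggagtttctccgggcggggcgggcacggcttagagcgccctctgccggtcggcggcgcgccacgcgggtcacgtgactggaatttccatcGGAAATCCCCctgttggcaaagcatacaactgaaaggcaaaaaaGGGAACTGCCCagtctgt
Nfkbie, chr17:45555450-45555749, plus strand: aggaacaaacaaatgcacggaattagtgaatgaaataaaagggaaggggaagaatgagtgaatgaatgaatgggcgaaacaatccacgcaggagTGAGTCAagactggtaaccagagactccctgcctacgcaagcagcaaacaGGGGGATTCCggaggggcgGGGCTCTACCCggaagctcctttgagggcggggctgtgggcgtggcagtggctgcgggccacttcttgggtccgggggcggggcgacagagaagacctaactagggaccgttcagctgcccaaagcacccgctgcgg

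In the Bcl3 window, GGGGAAGTCC and GGGAAGTCCC overlap by all but 1 base near the start. The Nfkbia window holds GGGAAGTACC at 212 bases and GGAAATTCCC at 29 bases before the start, the second read on the other strand. In the Tnfaip3 window TGACTCA, the AP-1 motif on the other strand, lies 136 bases before the start, just upstream of GGGGACACCC, and in the Nfkbie window TGAGTCA lies 156 bases before the start. The members with an AP-1 match had differences of 0.00 and -0.01, and those shown without it -0.16 and -0.08. Rela, Rel and Nfkb2, also without it, had -0.05, 0.02 and -0.05. Bcl3 and Nfkbia were shown for their large differences, and Tnfaip3 was tied in all 3 pairs and Nfkbie in 2. These values therefore do not compare members with and without an AP-1 match. A match describes letters in this window and is not a measured binding site.

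Rela encodes the main activating subunit of the factor that acts first after stimulation. Its log2 signal was 12.09, 11.85 and 11.76 on fosB-null arrays 1 to 3, and 12.10, 11.94 and 11.80 on wild-type arrays 1 to 3. The fosB-null array was the lower of the pair for each number, and the groups overlapped over most of their range. The difference was -0.05 with a standard error of 0.12 (95% interval -0.33 to 0.23, limma unadjusted p = 0.688, adjusted p = 1).

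Rel encodes c-Rel, a subunit prominent in lymphoid and myeloid cells. It had 11.85, 12.01 and 11.89 on fosB-null arrays, against 11.85, 11.997 and 11.83 on wild-type arrays. Rel was the only measured member with a higher mean in fosB-null arrays, and its first pair was tied. The difference was 0.02 with a standard error of 0.08 (95% interval -0.17 to 0.21, limma adjusted p = 1), and after each array was centred on its median it was -0.002.

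Relb encodes the subunit that pairs with the product of Nfkb2 in the alternative, slower arm of the pathway. The Relb signal was 9.45, 9.35 and 9.36 on fosB-null arrays, and 9.45, 9.41 and 9.36 on wild-type arrays. Pairs 1 and 3 were exact ties, so its difference of -0.02 (standard error 0.07, 95% interval -0.18 to 0.14, limma adjusted p = 1) came from pair 2, at -0.06. Nfkb2 encodes a precursor that acts as an inhibitor until it is processed to a DNA-binding subunit. It had 10.66, 10.95 and 10.36 on fosB-null arrays, and 10.69, 11.03 and 10.42 on wild-type arrays. Each fosB-null array was slightly below its partner, by -0.03, -0.07 and -0.05, while the replicate numbers spread over 0.60. Its difference was -0.05 with a standard error of 0.20 (95% interval -0.52 to 0.42, limma adjusted p = 1). With the fixed replicate block the same difference had a standard error of 0.012 and limma's p was 0.0387 unadjusted and 0.674 adjusted. With the random block the standard error was 0.033, the 95% interval -0.13 to 0.03 and limma's p 0.164 unadjusted and 0.779 adjusted.

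Nfkbia encodes IkappaB-alpha, the inhibitor that is degraded first and resynthesised fastest, and whose own gene is a classic target of the factor it restrains. The Nfkbia signal was 11.19, 11.25 and 11.14 on fosB-null arrays, and 11.33, 11.35 and 11.15 on wild-type arrays. It was lower in all 3 pairs, by -0.14, -0.10 and -0.01, and wild-type array 3 was below every fosB-null array but its partner. The difference was -0.08 with a standard error of 0.08 (95% interval -0.27 to 0.11), or 1.06-fold lower, and limma's p was 0.348 unadjusted and 1 adjusted. With the fixed replicate block the interval was -0.21 to 0.05 and limma's p 0.123 unadjusted and 0.674 adjusted, and with the random block -0.14 to -0.02, 0.0193 and 0.399.

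Nfkbie encodes IkappaB-epsilon, a related cytoplasmic inhibitor. It had 9.41, 9.36 and 9.32 on fosB-null arrays, and 9.41, 9.41 and 9.32 on wild-type arrays. As for Relb, pairs 1 and 3 were tied and pair 2 alone gave the difference of -0.01 (standard error 0.07, 95% interval -0.17 to 0.14, limma adjusted p = 1).

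Nfkbiz and Bcl3 encode atypical IkappaB proteins that work in the nucleus, where each can help or hinder transcription by the DNA-binding subunits. The Nfkbiz signal was 10.08, 10.33 and 9.90 on fosB-null arrays, and 10.08, 10.23 and 10.07 on wild-type arrays. Its pairs disagreed in sign, with 0, 0.10 and -0.16, and their mean was -0.02 (standard error 0.12, 95% interval -0.30 to 0.26, limma adjusted p = 1). Bcl3 had 9.71, 9.94 and 9.62 on fosB-null arrays, and 9.88, 10.03 and 9.82 on wild-type arrays. It was lower in all 3 pairs, by -0.18, -0.09 and -0.20, but fosB-null array 2 exceeded wild-type arrays 1 and 3.

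The group means of Bcl3 were 9.75 ± 0.17 in fosB-null and 9.91 ± 0.11 in wild-type arrays (SD, n = 3 each). The limma standard error was 0.11, the 95% interval -0.41 to 0.10, the unadjusted p 0.187 and the adjusted p 1. With the fixed replicate block the interval was -0.27 to -0.04 (limma unadjusted p = 0.0263, adjusted p = 0.674), and with the random block -0.22 to -0.09 (limma unadjusted p = 0.000998, adjusted p = 0.128). Bcl3 thus missed the adjusted threshold in each of these fits, and its 0.128 was the lowest adjusted p of any member under any of 19 alternatives.

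Tnfaip3 encodes a ubiquitin-editing enzyme that dampens signalling upstream of the IkappaB kinases. It had 10.12, 10.33 and 10.10 on fosB-null arrays and 10.12, 10.33 and 10.10 on wild-type arrays, identical to the last deposited digit within each pair. Its difference was 0 with a standard error of 0.10 (95% interval -0.24 to 0.24, limma adjusted p = 1). Complete ties of this kind were found in 6508 of 23410 tested probe sets, and in 602 of the 7846 at least as bright as Nfkbie. The value therefore cannot be read as a measured absence of change.

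**Figure D2:**
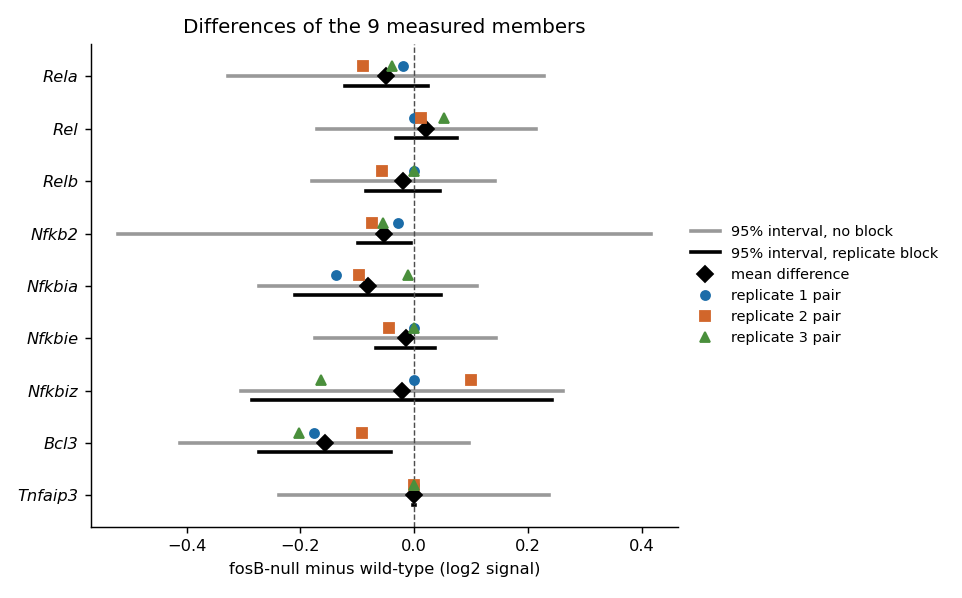
Difference in log2 signal, fosB-null minus wild-type, for each member. Coloured symbols are the 3 replicate pairs, diamonds their mean, grey bars the 95% interval of limma without a block and black bars that with the replicate number as a block. All 9 grey intervals include 0, and the black intervals of Nfkb2 and Bcl3 lie below it.

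The width of an interval limits what the 6 arrays could show. Without the block the half-widths ran from 0.16 to 0.47 on the log2 scale, that is 1.12-fold to 1.38-fold, narrowest for Nfkbie and Relb and widest for Nfkb2. With the fixed replicate block they ran from 0.046 to 0.264 for the 8 members not tied in every pair, and tied values narrow these intervals. Of the 27 pair values of the 9 members 9 were exact ties, or 33.3%, against 36.2% among the 7846 tested probe sets at least as bright as Nfkbie, the dimmest member by mean signal. Rela, Nfkb2, Nfkbia and Bcl3, that is 4 of 9, were lower in all 3 pairs and 0 were higher in all 3. Of all tested probe sets 5.57% were lower in all 3 pairs and 2.20% higher, and of the 7846 brighter ones 12.7% and 4.72%. The median difference of the members was -0.02, against 0.00 over all tested probe sets and -0.01 over the brighter ones.

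The signals varied more between replicate numbers than between the groups. For all 9 members the range of the 3 pair means exceeded the size of the difference between the groups, from 0.09 against 0.02 for Relb to 0.60 against 0.05 for Nfkb2. For Bcl3 they were 0.27 against 0.16, and for Nfkbia 0.15 against 0.08. Tied pairs draw the group difference towards 0. The share of all tested probe sets with the larger range was not counted, so it is not given as a trait of the members. Nfkb2, Rel, Nfkbia, Nfkbiz, Bcl3 and Tnfaip3 were highest in number 2, and Rela, Relb and Nfkbie in number 1. Number 3 was the lowest for 8 of 9 members, all but Rel. These orders were not counted over all tested probe sets. Each of the cell type marker lists was also highest in number 2 in both groups. Microglia markers, for example, averaged 12.35 on that fosB-null array and 12.36 on that wild-type array. A high number 2 is therefore not particular to the members. Which step of the culture or of the array work a number stands for was not tested.

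Most members were positively correlated across the arrays. Pearson's r over the 6 arrays was 0.97 for Rel with Tnfaip3 and 0.90 for Nfkb2 with both Tnfaip3 and Nfkbiz, and 0.96 for Rela with Relb and 0.92 for Rela with Nfkbie. It was 0.74 for Nfkbia with Nfkbie and 0.51 for Rel with Nfkbia, and -0.34 for Rel with Relb and -0.24 for Relb with Tnfaip3. Of the 36 pairs of members 31 had an r above 0, with a median of 0.60. These correlations are descriptions over 6 arrays that share replicate numbers and tied values. The same was not computed among other probe sets, so the positive values are not given as a trait of the members.

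**Figure D3:**
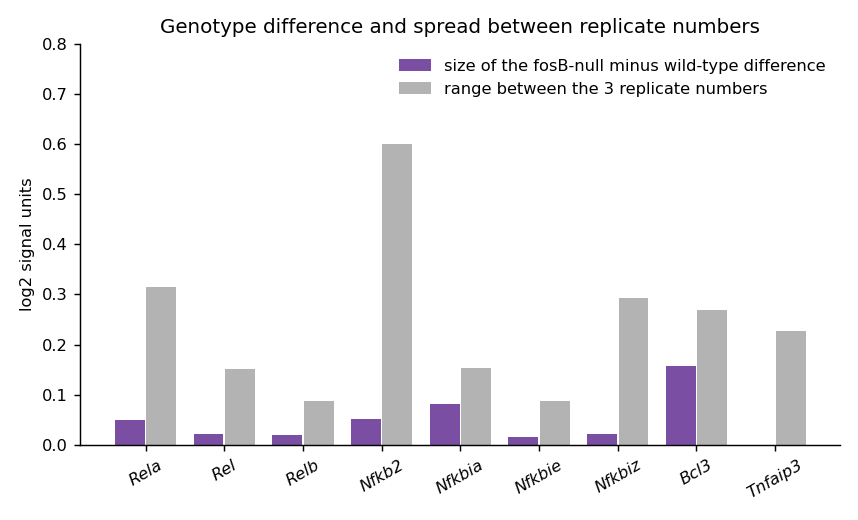
For each member, the size of the difference between fosB-null and wild-type means (purple) and the range of the 3 pair means, 1 per replicate number (grey), in log2 units. The grey bar is the taller for all 9 members, and Tnfaip3 has a difference of 0.

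Relb and Bcl3 lie on the chromosome of Fosb, 17 and 26 measured genes away on the same side, while the other 7 measured members lie on other chromosomes. Both belong to the 200 measured genes closest to Fosb, 100 to either side, as do C5ar1 and C5ar2, at -0.90 and -1.80. Of the 200, 89 were lower in fosB-null arrays, 54 higher and 57 exactly 0, or 44.5% lower against 41.3% of all tested probe sets, and the median was 0.00. By limma 1 of the 200, C5ar2, had an adjusted p under 0.05, where 0.00427% of all tested probe sets did. With the fixed replicate block 0 did (0% of all), and with the random block 9 did (0.201% of all). Lower in all 3 pairs were 31 of the 200, or 15.5%, against 5.57% of all tested probe sets, and Bcl3 was among them while Relb was not. Higher in all 3 pairs were 9 of the 200, or 4.5%, against 2.20% of all. Ordered from the lowest difference, Bcl3 stood 20th and Relb 60th among the 200.

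The genes that flank the 2 members were mixed in sign. Clasrp and Clptm1, on either side of Relb, differed by -0.02 and -0.09, and Cblc and Ceacam16, on either side of Bcl3, by -0.02 and 0.12. Apoc1, 3 measured genes beyond Relb, encodes an apolipoprotein and differed by -0.53 (standard error 0.22). Pvr, 3 measured genes beyond Bcl3, encodes the poliovirus receptor homologue and differed by -0.48 (standard error 0.12). Apoc1 and Pvr had limma unadjusted p of 0.0445 and 0.00477 and an adjusted p of 1 each. They were singled out from the 12 flanking genes after their values were seen. Ercc2 and Zfp111, both in this region, differed by -0.59 and -0.70 (limma adjusted p = 1 each), and passed the adjusted threshold with the random block, at 0.0143 and 0.00483, as did Pvr at 0.0457.

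**Figure D4:**
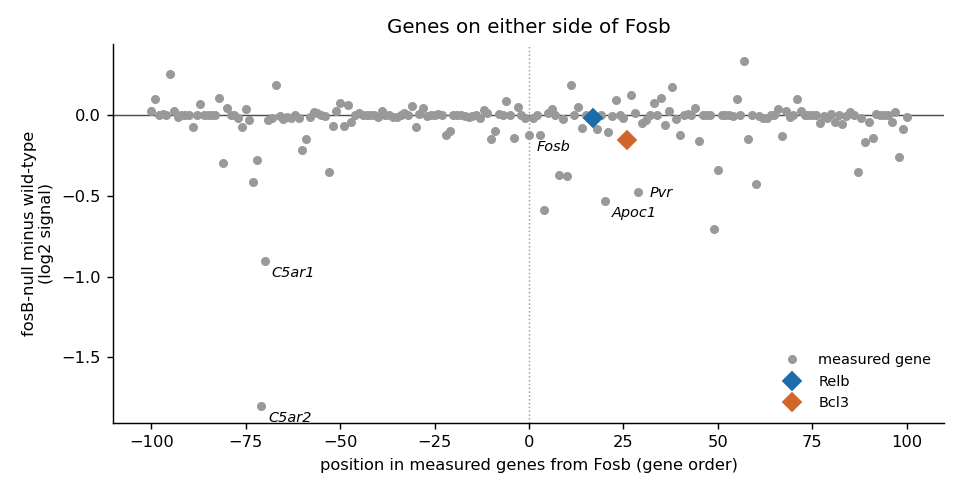
Difference in log2 signal, fosB-null minus wild-type, of Fosb and of 100 measured genes to either side, in gene order and not to genomic scale. Relb (blue) lies at -0.02, Bcl3 (orange) at -0.16, and C5ar2 at -1.80 is the lowest point.

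The other genes of the pathway were described from 5 lists: receptors upstream, adaptors and ubiquitin ligases, kinases, further inhibitors and target genes. By limma 0 genes of any of the 5 lists had an adjusted p under 0.05, and neither replicate block changed this. At an unadjusted p under 0.05 there were 4 target genes of 40, of which 3 were lower, and 0 in the other lists, where 0.453% of all tested probe sets were lower and 0.269% higher at that level. Beside the counts of each list given below, 41.3% of all tested probe sets were lower and 30.9% higher. Of the 7846 at least as bright as Nfkbie, 58.6% were lower and 33.7% higher. List medians lay between -0.03 and 0.00. With single arrays left out every one of the 5 changed sign in at least 1 case, between -0.086 and 0.034 for target genes and between -0.058 and 0.037 for receptors, so they give no direction.

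Of 19 measured receptors of 21 listed, 10 were lower in fosB-null arrays, 7 higher and 2 exactly 0, with a median difference of -0.005. Ltbr, the lymphotoxin beta receptor that feeds the alternative arm, was at 9.73 ± 0.04 in fosB-null and 9.84 ± 0.07 in wild-type arrays (SD, n = 3 each), and differed by -0.11, -0.14 and -0.09 in the pairs. Its limma unadjusted p was 0.148 and its adjusted p 1, and with the random block they were 0.000348 and 0.0821. Tnfrsf1b, a receptor for tumour necrosis factor, differed by -0.11, the RNA sensor gene Tlr7 by 0.11 and Cd14, a lipopolysaccharide co-receptor, by -0.09.

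Adaptors and ubiquitin ligases had 16 of 23 measured genes lower (28 listed), 5 higher and 2 at 0, with a median of -0.03. Traf2 differed by -0.13, Malt1, a paracaspase, by 0.13, Rnf31 of the linear ubiquitin ligase by -0.08 and Birc3, a ligase that is also a target of the pathway, by -0.10. Of 11 measured kinases and their partners (12 listed) 7 were lower and 4 higher, with a median of -0.002. Ikbkg, the regulatory subunit of the IkappaB kinase, differed by -0.08, or -0.06, -0.11 and -0.08 in the pairs, Map3k7 by 0.05, its partner Tab1 by -0.04 and Ikbke by -0.08. The 21 further inhibitors had 12 lower, 4 higher and 5 at 0, with a median of -0.007. Nfkbib, which encodes IkappaB-beta, was lower in all 3 pairs, at -0.15, -0.09 and -0.05. Nkiras1 differed by -0.06, the ribonuclease gene Zc3h12a by -0.08 and Tnip2, a partner of the Tnfaip3 product, by 0.05. All of these genes had a limma adjusted p of 1, and leaving out 1 array moved most of their differences by over 1.5 times.

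Target genes spread more widely than the members, but over 40 genes rather than 9. Of 40 measured, 24 were lower, 12 higher and 4 at 0, with a median of -0.02 and a range from -0.43 to 0.34. The range over all tested probe sets was -2.34 to 0.92. The 4 genes below were picked by lowest unadjusted p, and the upper end of the list's range belongs to a gene not among them. Gadd45b, a stress response gene, was at 9.65 ± 0.19 in fosB-null and 10.08 ± 0.09 in wild-type arrays (SD, n = 3 each). It differed by -0.33, -0.29 and -0.67 in the pairs (limma unadjusted p = 0.00645, adjusted p = 1). Ccl5, a chemokine gene, differed by -0.53, -0.65 and -0.12 in the pairs and by -0.43 on average (unadjusted p = 0.0345), and Ccrl2, a chemerin-binding receptor, by -0.46, -0.59 and -0.06 and by -0.37 on average (0.0323). Tnfsf9, a ligand of the tumour necrosis factor family, was higher in each pair, at 0.24, 0.34 and 0.10, with a mean of 0.23 (0.0158). Border macrophage markers moved by a median of 0.14 beside these values, and their part in them was not tested.

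**Figure D5:**
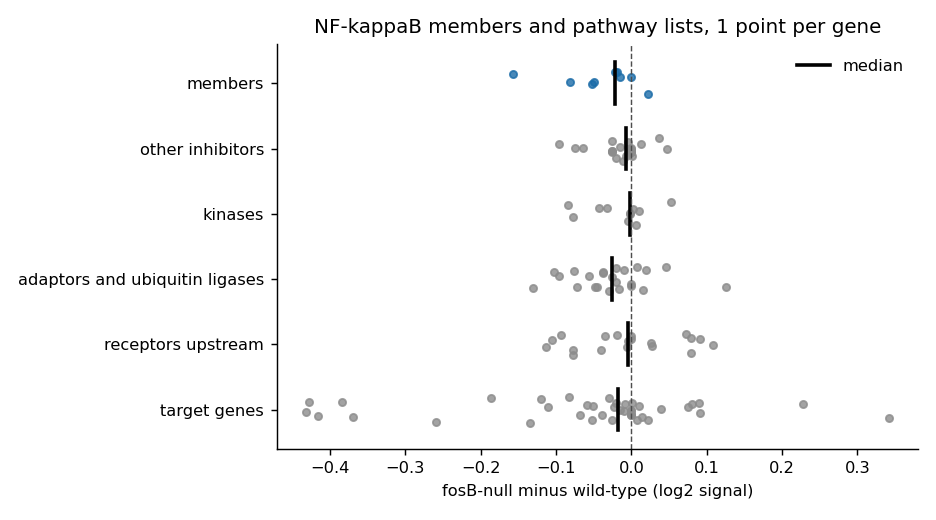
Difference in log2 signal, fosB-null minus wild-type, of the 9 members and of the genes of 5 pathway lists, 1 point per gene with vertical jitter for display only, and the median as a black line. The medians lie between -0.03 and 0.00, and the target genes spread from -0.43 to 0.34.

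The genes whose pattern over the 6 arrays was most like that of 3 members were sought among 10078 protein-coding genes with a signal above the median probe set. For Relb they were Mapk11, Ift88 and Dnaja1, with Pearson's r of 0.999, 0.994 and 0.993. For Bcl3 they were Zfp626, Yipf1 and Slfn5, with 0.994, 0.991 and 0.990, and these differed between the groups by -0.30, -0.12 and -0.39. For Nfkbia they were Ndufs5, Inf2 and Tmem62, with 0.998, 0.994 and 0.993. With 6 arrays and so many candidates, values this high at the top of the ranking are a description only.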

How the data were processed

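Microglial RNA (100 ng per array, per the labels) was measured on 6 Affymetrix arrays. The values the authors deposited are log2 signals, 1 per probe set and array. Per the submitters' processing notes the software was Affymetrix Expression Console. Its version, its normalization and the genome build were not stated there. Their range (1.73 to 14.6, array medians 7.76 to 7.92) gave the log2 scale. All columns of the table were used.

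Genes were named from the platform annotation (1 symbol for 21789 probe sets, several for 1621, none for 12147) and updated through gene numbers in RefSeq GRCm38.p6, which held 21698 of the 21789. RefSeq was used for names, gene order and promoters only. Lists and gene order use a gene's brightest single-gene probe set.

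The comparison used limma 3.58.1 (R 4.3.3; lmFit, eBayes, two-sided) without a block or filter, with Benjamini-Hochberg adjustment over 23410 probe sets and a threshold of 0.05. Intervals are 95% intervals of the fit. Scripts were tested on simulated data without tied values, so that test does not cover how the blocked fits behave with ties. The number of arrays limits the precision, and since the labels call the arrays biological replicates without naming animals or cultures, p-values measure only the spread between these samples. The replicate numbers pair the arrays by their values, as given above. The main fit does not use this pairing, so its standard errors and intervals include the spread between replicate numbers. In the fit with the random block the correlation within a number was 0.956. This 1 value was estimated over all 23410 tested probe sets, where 57.6% of pair values were exact ties. Tied values therefore enter the standard errors, p-values and calls of that fit. Named genes are the members, Fosb, the 4 genes of each list with the lowest unadjusted p, flanking genes of Relb and Bcl3, and the 3 genes most like Relb, Bcl3 and Nfkbia. Members and lists were chosen with earlier results of these data known. Alternatives were quantile normalization, median centring, leaving out the dimmest 40%, other tested probe sets, array weights, an intensity trend, robust eBayes, fixed and random replicate blocks, and leaving out each array or number.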

Additional observations from a re-analysis of the deposited data

How the results depend on the processing

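No member passed the adjusted threshold under any of 19 alternatives (171 values, 0 called), and the lowest adjusted p, 0.128 for Bcl3, came with the random replicate block. Bcl3 and Nfkbia kept a lower mean in all of them, Bcl3 from -0.25 to -0.087 and Nfkbia from -0.143 to -0.045. Other members changed sign in 13 of the values, 12 of them with arrays left out. With arrays left out Nfkb2 ranged from -0.20 to 0.107, Rel from -0.025 to 0.073, Rela from -0.143 to 0.03, Relb from -0.05 to 0.002, Nfkbie from -0.043 to 0.006 and Nfkbiz from -0.134 to 0.078. Of 30 named genes from the pathway lists and the region next to Fosb, 19 moved by over 1.5 times when 1 array was left out. Examples are Ikbkg, from -0.158 to -0.013, and Malt1, from 0.022 to 0.223. Of the 30, 4 changed sign: Ikbke ranged from -0.15 to 0.059, Tnip2 from -0.029 to 0.148, Clasrp from -0.058 to 0.01 and Cblc from -0.122 to 0.076. Fosb and the genes most like Relb, Bcl3 and Nfkbia were not part of this count. Rel was -0.002 with median centring. Tnfaip3, at 0 in the main comparison, ranged from -0.073 to 0.073. Over all probe sets limma called 1 gene, against 0 with the replicate block and 47 with the random replicate block, 0 to 2 with arrays left out (2 without wild-type replicate 3), and 1 in the other alternatives. C5ar2 lost its call with the replicate block (adjusted p = 0.539), which changed no other call, and without both arrays of number 1, 2 or 3 (adjusted p = 1, 0.836 and 0.344), while its difference stayed between -1.83 and -1.77 in these fits. List medians ranged from -0.086 to 0.048. They moved by more than their spread between pairs in 53 of 95 values. That spread was near 0 for receptors, further inhibitors and target genes, whose pair medians were all 0.00. The count therefore does not measure how far the medians moved. The number of arrays limits the precision.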
